A study of Mus musculus with 6 samples.

Results

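The bHLH (basic helix-loop-helix) transcription factors of excitatory cortical neurogenesis and their partners were examined in the postnatal day 7 (P7) mouse cortex. The members were taken by gene symbol: Neurog2, Neurod1, Neurod2 and Neurod6, the T-box gene Eomes, and the E protein genes Tcf3, Tcf4 and Tcf12. All 8 were among the 24972 genes of the deposited table, and all 8 were among the 15800 that were tested. RNA was sequenced from dissected cortex in 3 libraries from Zmiz1f/f mice, called wildtype, and in 3 libraries labelled Zmiz1-KO (below, KO-labelled), from Zmiz1f/f;Emx1Cre mice. Both groups thus carried the floxed allele, and only the group labelled Zmiz1-KO carried Cre, which the Emx1 locus drives in dorsal telencephalic progenitors, the source of excitatory neurons and of much of the glia of the cortex. Interneurons, microglia and vessels arise outside that lineage and keep the allele. Neither the labels nor the methods state whether a library came from 1 animal or a pool, or name litter or sex, so the p-values below measure the spread between these libraries.

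Neurogenic bHLH factors bind DNA as dimers with an E protein, at a short motif called the E-box (CANNTG). In the developing cortex Neurog2 acts in dividing progenitors, Eomes (Tbr2) marks intermediate progenitors, Neurod1 follows in intermediate progenitors and newborn neurons, and Neurod2 and Neurod6 persist in postmitotic excitatory neurons. The E proteins Tcf3 (E2A), Tcf4 (E2-2) and Tcf12 (HEB) are their broadly expressed partners, and the Id proteins, which lack a DNA-binding region, sequester E proteins. Tcf3 and Tcf4 are not the Wnt pathway factors of similar name, which are Tcf7l1 and Tcf7l2.

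Zmiz1, the targeted gene, stood at 8119, 7929 and 7461 normalized counts in the wildtype libraries, in replicate order, and at 9944, 9779 and 9660 in the KO-labelled ones. The deleted gene was therefore higher under the label of its deletion (log2 fold change 0.32, standard error 0.040, limma adjusted p = 0.00125), and groups are named here by label only. Emx1, whose locus drives Cre, fell in the same libraries, by 0.53 on the log2 scale (limma adjusted p = 0.0150). A value per gene does not separate transcripts with and without the floxed part. Xist was high in wildtype replicate 3 and in KO-labelled replicate 2, at 25300 and 24400 normalized counts, and lay between 12.9 and 57.3 in the other 4 libraries. The labels' protocol speaks of isolating progenitor cells, whereas the methods describe dissected cortex. Markers of mature cells were abundant in the table, with Slc17a7, the vesicular glutamate transporter, at 19640 ± 1127 and the presynaptic gene Snap25 at 16058 ± 348 normalized counts (SD, n = 3) in wildtype, beside 892 ± 29.6 for the proliferation gene Mki67. Low values lay near multiples of 1.83 to 2.11 normalized counts, which would stand for 1 read, and the sums divided by these steps gave 15494859 to 17858420 reads per library.

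Neurod1 was the member that changed past the threshold. It fell by 25.5% of its wildtype mean in the KO-labelled libraries, and it was 1 of 8 members with a limma adjusted p at or under 0.05, against 0.411% of all tested genes in either direction and 0.247% of them lower. In 3 members, Neurod1, Neurod2 and Tcf4, every KO-labelled value lay under every wildtype value, against 8.16% of all tested genes that were lower without overlap. Of the log2 fold changes, 6 were negative and 2 positive, with a median of -0.17, beside -0.00018 over all tested genes. In RNA from whole cortex, fewer cells of a type and less RNA per cell cannot be told apart.

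**Figure D1:**
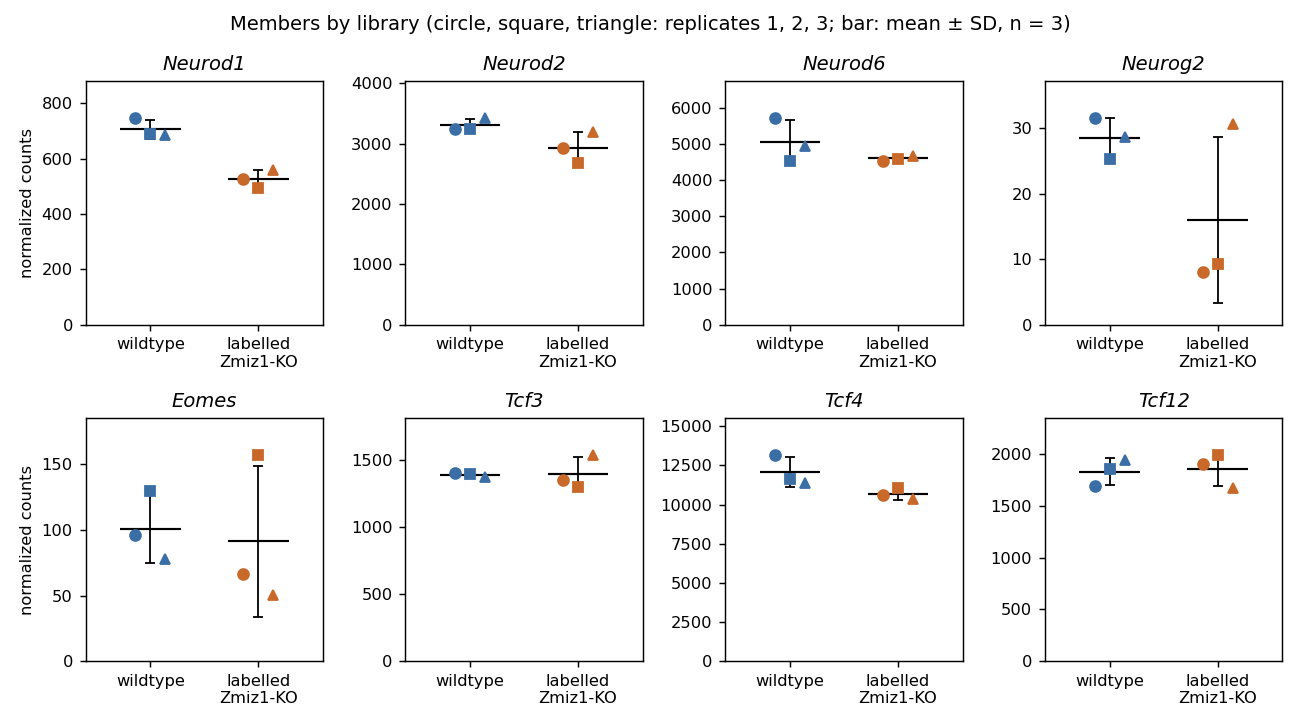
Normalized counts (y axis, from 0) of the 8 members in each library, by group; circles, squares and triangles are replicates 1, 2 and 3, and bars give the mean ± SD of 3 libraries. In Neurod1 the 3 KO-labelled libraries sit between 495.5 and 557.8, all below the lowest wildtype value of 684.2, whereas Eomes and Neurog2 spread widely within the KO-labelled group.

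Per kilobase of annotated exon, the members differed widely in level. On this scale Neurod6 stood highest, at 2350 ± 280 normalized counts per kb (SD, n = 3) in wildtype, followed by Neurod2 at 1051 ± 32.2. Tcf4 had 440.4 ± 35.4 and Tcf3 had 344.6 ± 4.08 per kb, and these neighbours overlapped in the KO-labelled libraries but not in the wildtype ones. Neurod1 came next with 258.9 ± 12.5 and Tcf12 with 117.6 ± 8.35. The genes of dividing progenitors were lowest, Eomes with 24.29 ± 6.32 and Neurog2 with 12.76 ± 1.41, and they too overlapped in the KO-labelled libraries only. The other neighbours in this order did not overlap over the 6 libraries. The order of the means was the same in the KO-labelled group, but in its replicate 3 Tcf3 stood above Tcf4 and Neurog2 above Eomes. Tcf4 and Tcf12 have 62 and 21 annotated transcripts, whose exons together cover 27.38 and 15.53 kb. A single transcript may hold only part of that length. The levels of Tcf4 and Tcf12 per kb may thus be understated beside those of Neurod1, Neurod2, Neurod6 and Neurog2, which have 1 annotated transcript each.

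**Figure D2:**
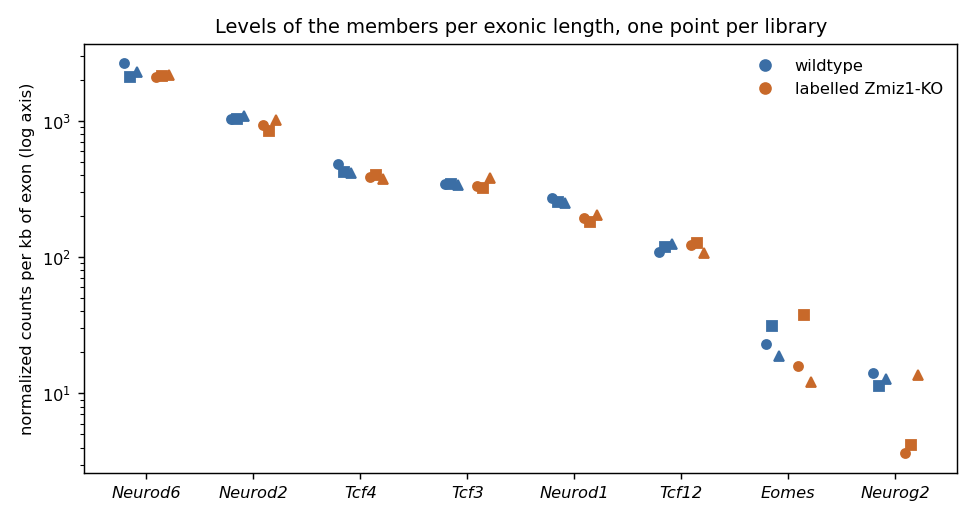
Normalized counts per kb of annotated exon (y axis, log scale) for each member, ordered by the wildtype mean, with 1 point per library and replicates drawn as circle, square and triangle. Levels run from 2654 in the highest Neurod6 library to 3.621 in the lowest Neurog2 library.

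The stretches before the start sites of the 3 NeuroD genes are shown because they hold the motif that the bHLH members themselves bind. They come from RefSeq on GRCm38.p6, on the minus strand, read 5′ to 3′, and each ends before any annotated GENCODE exon. The Neurod1 stretch is chr2:79456786-79456886, that of Neurod2 chr11:98329649-98329895 and that of Neurod6 chr6:55681264-55681513. Capitals mark matches to CANNTG, a motif that reads the same way on both strands.
Neurod1: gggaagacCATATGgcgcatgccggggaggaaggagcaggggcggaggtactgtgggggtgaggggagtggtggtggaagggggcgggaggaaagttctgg
Neurod2: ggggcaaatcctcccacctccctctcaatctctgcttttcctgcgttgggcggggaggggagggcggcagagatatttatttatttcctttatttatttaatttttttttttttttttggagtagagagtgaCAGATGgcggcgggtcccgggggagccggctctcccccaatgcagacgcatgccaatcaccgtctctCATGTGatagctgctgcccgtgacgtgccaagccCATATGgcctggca
Neurod6: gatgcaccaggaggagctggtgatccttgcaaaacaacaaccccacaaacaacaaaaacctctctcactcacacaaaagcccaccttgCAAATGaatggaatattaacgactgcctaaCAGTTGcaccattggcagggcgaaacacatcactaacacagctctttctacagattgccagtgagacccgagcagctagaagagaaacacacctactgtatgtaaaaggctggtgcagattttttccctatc
In the full 250 bases before the start, Neurod1 held 1 E-box, Neurod2 held 3 and Neurod6 held 2. Tcf3 held 1, Neurog2 and Eomes held 0, and Tcf12, with 3 annotated starts, held 1, 1 and 0. Some of these windows run into GENCODE exons of the gene itself. Such exons cover 115 of the 250 bases for Neurod1 and all 250 of the third Tcf12 window. In the other windows they cover 52 bases or fewer. Of 32851 promoter windows of this length, 66.2% held at least 1 match. The core CAGATG, searched on both strands and often bound by NeuroD and neurogenin proteins, occurred before Neurod2, 118 bases from its start, and in 14.4% of all windows. A match is not a bound site, and no binding was measured.

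Neurog2, the proneural factor of dividing progenitors, lies on chromosome 3 of GRCm38 from 127633135 to 127635631. In replicate order, the wildtype libraries held 31.48, 25.21 and 28.59 normalized counts, and the KO-labelled libraries 8.063, 9.219 and 30.6. KO-labelled replicates 1 and 2 were thus low, and replicate 3 lay inside the wildtype range. These values stand for about 12 to 16 reads per library in wildtype and about 4, 5 and 15 reads in the others. The log2 fold change of -1.04 had a 95% interval from -1.99 to -0.08 and a limma adjusted p of 0.407. Without KO-labelled replicate 3 it was -1.61 (limma adjusted p = 0.314), and without KO-labelled replicate 1 it was -0.71. The coefficient of variation was 11.0% in wildtype and 79.5% in the KO-labelled group. The size of the value also depends on the pseudocount, and was -0.67 with a pseudocount of 10 in place of 1.

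Eomes, the T-box factor of intermediate progenitors, lies on chromosome 9 from 118478212 to 118486132. Its 95.85, 129.3 and 77.54 normalized counts in wildtype spanned a narrower range than the 66.46, 157.0 and 50.37 in the KO-labelled libraries, and the groups overlapped. The log2 fold change was -0.29 with a 95% interval from -1.37 to 0.80 (limma adjusted p = 0.883), which is 0.386 to 1.74 of the wildtype level. The value turned from -0.29 to 0.05 without KO-labelled replicate 3 and moved to -0.76 without KO-labelled replicate 2. Replicate 2 gave the highest Eomes value in each group. It also gave the highest sum of each group for the markers of cerebellar granule neurons, with 874.7, 1483 and 895.1 in wildtype and 975.9, 1458 and 996.8 in the KO-labelled libraries. That sum rests on Zic1 and Zic4, while the defining markers Gabra6 and Atoh1 were near 0 (wildtype means 0.714 and 0.669), and of the 6 markers 3 were tested and none passed. Replicate 2 likewise gave the highest sum of each group for the dentate, Cajal-Retzius, cycling, interneuron, astrocyte and endothelial markers. Mitral and tufted cells of the olfactory bulb express Eomes. Their summed markers lay between 905 and 1066 in wildtype and between 953 and 1209 in the other group, and 0 of 3 passed. For Cajal-Retzius cells the sums were 10352 to 12083 and 11375 to 12355, with 0 of 6 past the threshold. Reln makes up most of that sum (wildtype mean 9274), and 3 values were positive and 3 negative. Trp73 was lower in the KO-labelled libraries without overlap (-0.39, limma adjusted p = 0.280), and Lhx1 had -0.61 with overlapping groups. The part of these cells in the Eomes values was not tested. Among the T-box relatives, 10 of 16 were tested and none passed, with 5 positive and 5 negative values and a median log2 fold change of -0.02, which was 0.0042 with a pseudocount of 10 and ran from -0.05 to 0.19 (the latter without wildtype replicate 2) with 1 library left out. The largest values were -0.28 for Tbx21 and 0.27 for Tbx18.

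Neurod1, a factor of intermediate progenitors and newborn neurons that is also kept in granule neurons of the dentate gyrus and cerebellum, lies on chromosome 2 from 79452521 to 79456751. Wildtype replicates 1, 2 and 3 held 745.8, 689.6 and 684.2 normalized counts, and the KO-labelled replicates 526.2, 495.5 and 557.8. The lowest wildtype library exceeded the highest KO-labelled library by 126.3 normalized counts. The means were 706.5 ± 34.1 and 526.5 ± 31.2 (SD, n = 3), a log2 fold change of -0.42 with a standard error of 0.078 and a 95% interval from -0.59 to -0.26, which is 0.665 to 0.836 of the wildtype level. Its limma adjusted p was 0.0229, and by p value it stood in place 33 of the 15800 tested genes. The exact two-sided permutation p was 0.1, the smallest that 3 libraries against 3 can give.

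The Neurod1 change kept its direction and size, but not always its call. With each library left out in turn the log2 fold change stayed between -0.47 and -0.38, but the adjusted p was at or under 0.05 in 2 of 6 fits. It was 0.112 without wildtype replicate 1, 0.0505 without wildtype replicate 3, 0.110 without KO-labelled replicate 1 and 0.0815 without KO-labelled replicate 3 (limma). It was 0.0590 in the 4 libraries with low Xist and 0.0755 without robust estimation.

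**Figure D3:**
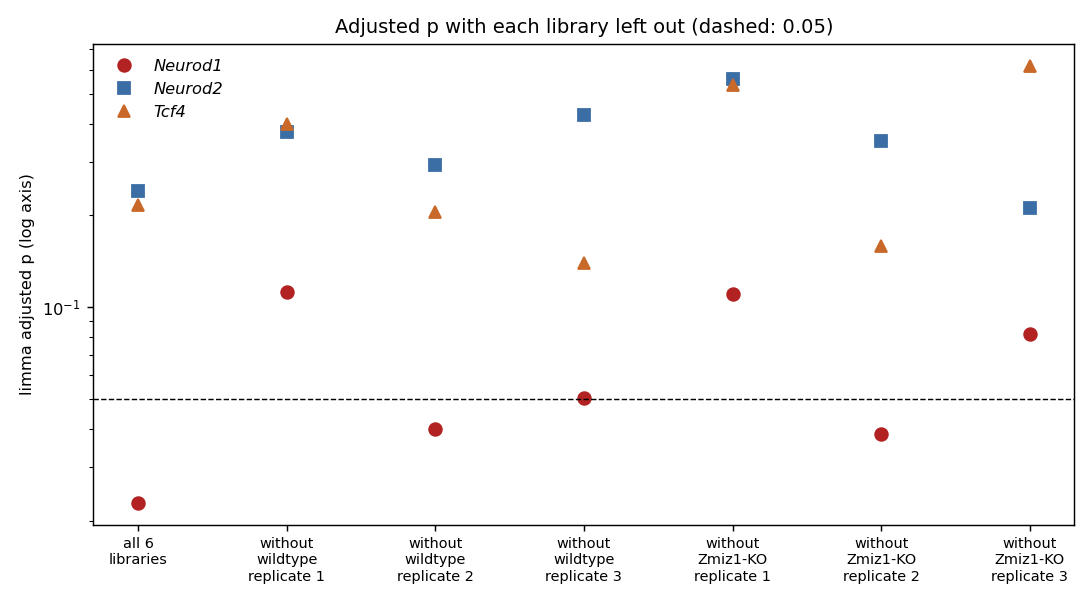
Limma adjusted p (y axis, log scale) of Neurod1, Neurod2 and Tcf4 with all 6 libraries and with each library left out; the dashed line marks 0.05. Neurod1 crosses the line in 4 of the 6 reduced fits, reaching 0.112, and Neurod2 and Tcf4 stay above it throughout.

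Reads of Neurod1 overlap little with those of other genes. Of its 75-base transcript stretches, 7.87% also occur in other genes, on either strand: of these 209 stretches, 128 lie in Cerkl, which has an exon near the start of Neurod1, and 81 in Gm26755. Cerkl itself had 10.307 to 23.227 normalized counts over the 6 libraries. The library kit does not mark strand, so reads of Gm26755, a non-coding gene on the opposite strand inside Neurod1, could not be told apart from those of Neurod1. Dentate granule neuron markers summed to 4128 to 4637 in wildtype and 4077 to 4566 in the KO-labelled libraries. C1ql3, Calb2 and Prox1 make up most of that sum. Calb2 is also in the Cajal-Retzius list, so the sum says little on dentate cells alone. Of these 7 markers 0 passed the threshold and none was at 0, and 5 values were negative and 2 positive, with a median of -0.09. The largest were 0.50 for C1ql2 and -0.48 for Tdo2. Tdo2 and Lct (-0.37) were lower in the KO-labelled libraries without overlap, and Prox1 had -0.29 with overlapping groups. The part of dentate cells in the Neurod1 value was not tested.

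Neurod2, which acts in postmitotic excitatory neurons, lies on chromosome 11 from 98325415 to 98329648. Its values were 3242, 3248 and 3420 normalized counts in wildtype and 2929, 2682 and 3191 in the KO-labelled libraries. The groups did not overlap, but the gap between them was 51.68 normalized counts, smaller than the SD of either group. The log2 fold change of -0.17 (standard error 0.056, 95% interval -0.29 to -0.05) had a limma adjusted p of 0.241 and did not pass. It was -0.09 in the 4 libraries with low Xist.

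Neurod6 (NEX), expressed in the same postmitotic neurons, lies on chromosome 6 from 55677822 to 55681263. It had 5706, 4517 and 4937 normalized counts in wildtype and 4533, 4579 and 4670 in the KO-labelled libraries. Wildtype replicate 1 stood alone at the top, and the groups overlapped. The log2 fold change was -0.13 (95% interval -0.30 to 0.04, limma adjusted p = 0.569), and it was -0.04 without wildtype replicate 1 and -0.21 without wildtype replicate 2 (limma adjusted p = 0.144). Within the summed NeuroD level per kb of each library, Neurod1 made up 6.90, 7.46 and 6.90% in wildtype and 5.96, 5.74 and 6.03% in the KO-labelled libraries. The share of Neurod1 thus separated the groups, without any scaling between libraries, while the shares of Neurod2 (28.8 ± 2.42 against 28.6 ± 1.5%, SD, n = 3) and Neurod6 (64.1 ± 2.62 against 65.5 ± 1.65%) overlapped.

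**Figure D4:**
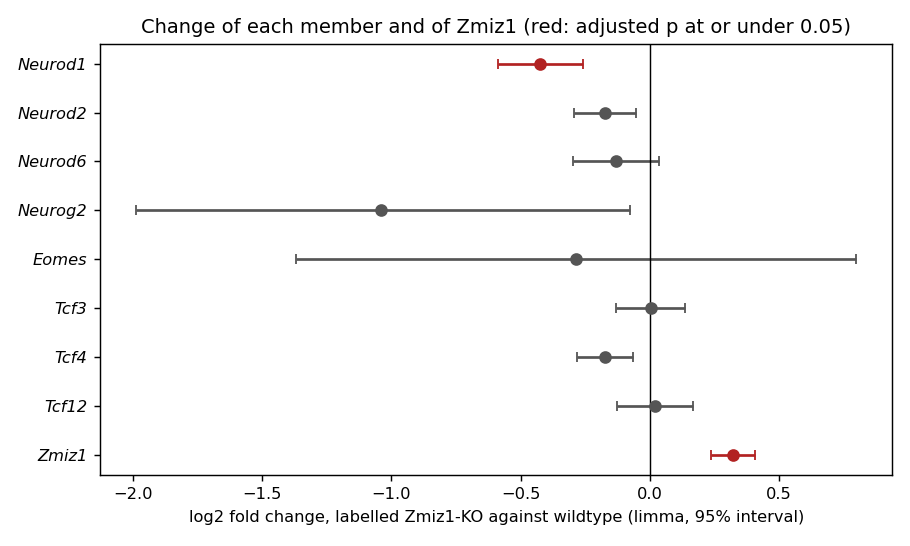
Log2 fold changes (x axis) of the 8 members and Zmiz1 with 95% intervals from limma; red marks an adjusted p at or under 0.05. Neurod1 at -0.42 lies wholly below 0, Zmiz1 at 0.32 wholly above it, and the intervals of Neurog2 and Eomes are the widest of the 9 genes.

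Of the E proteins, Tcf4, on chromosome 18 from 69343356 to 69689079, had the highest mean per kb in each group. In KO-labelled replicate 3, however, Tcf3 stood slightly above it on that scale. Tcf4 had values of 13164, 11651 and 11360 normalized counts in wildtype and 10629, 11049 and 10343 in the KO-labelled libraries. The groups did not overlap, and the gap of 310.8 normalized counts was smaller than either SD (968 and 355). The log2 fold change of -0.17 had a 95% interval from -0.28 to -0.06 and a limma adjusted p of 0.216. It did not pass the threshold under any of 16 alternatives, with limma adjusted p from 0.0646 to 0.618. All 16 were limma fits on the normalized values, and none was a count model. Without wildtype replicate 1 the log2 fold change was -0.11.

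Tcf3, on chromosome 10 from 80409514 to 80433647, gave 1403, 1400 and 1373 normalized counts for wildtype and 1354, 1305 and 1541 in the KO-labelled libraries. The wildtype libraries lay within the range of the others. The log2 fold change of 0.0047 had a 95% interval from -0.13 to 0.14 (limma adjusted p = 0.990), and its sign changed without wildtype replicate 3 and without KO-labelled replicate 3. Tcf12, on chromosome 9 from 71842688 to 72111871, gave 1686, 1849 and 1942 normalized counts for wildtype and 1901, 1989 and 1672 in the KO-labelled libraries, and the groups overlapped. Its log2 fold change of 0.02 had a 95% interval from -0.13 to 0.17 (limma adjusted p = 0.947), and its sign changed without wildtype replicate 1 and without KO-labelled replicate 2. For both genes the intervals leave out changes of more than about 0.17 on the log2 scale in either direction. The share of Tcf4 in the summed E protein level per kb was 48.7 ± 2.26% in wildtype and 45.6 ± 1.85% in the KO-labelled libraries (SD, n = 3), with overlapping groups.

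The Id genes, the inhibitory partners of E proteins, did not pass the threshold. Of the 4 tested, 3 had positive values, from 0.0028 for Id4 to 0.17 for Id1 (limma adjusted p = 0.587), and Id2, the most abundant with 3396 ± 138 normalized counts in wildtype and 3340 ± 134 in the other group (SD, n = 3), had -0.02. Their median log2 fold change was 0.04. Of the 11 cofactors of E proteins, which include the ETO repressors, the LMO and Ldb adaptors and the acetyltransferases Ep300 and Crebbp, all were tested and none passed. The median was 0.01 (-0.02 to 0.04 with 1 library left out), and the largest values were -0.14 for Ep300 (limma adjusted p = 0.328) and 0.13 for Lmo2 (limma adjusted p = 0.629).

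Among other proneural and neuronal bHLH genes, 9 of 17 were tested, and 1 of them, Olig1, passed the threshold. Olig1, a factor of the oligodendrocyte lineage, fell from 4673 ± 143 to 3730 ± 105 normalized counts (SD, n = 3), a change of -0.33 on the log2 scale (limma adjusted p = 0.00173). Its neighbour in function Olig2 had 1190 ± 92.8 and 1017 ± 64.2 normalized counts, with groups that did not overlap and a limma adjusted p of 0.218. Nhlh2, a bHLH gene of newborn neurons, had the largest value, -0.49, at a limma adjusted p of 0.497. The median of the 9 was -0.21, beside -0.17 in the 8 members. The 8 genes not tested, among them Neurog1 and Neurog3, had wildtype means of 12.0 normalized counts or less. Of the oligodendrocyte lineage markers, 1 of 8, Olig1, passed, none was at 0, and their sum was 16783 to 18715 in wildtype and 15015 to 15680 in the KO-labelled libraries. The part of that lineage in the Olig1 value was not tested.

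The Hes, Hey, Bhlhe40 and Bhlhe41 genes, bHLH repressors that oppose or follow proneural factors, had positive log2 fold changes in 9 of 9 tested genes, from 0.01 for Hes5 to 0.22 for Hes1, with 0.16 for Hes7 and a median of 0.08. None passed the threshold. With 1 library left out, 7 to 9 were positive. All 9 stayed positive under both rescalings, but neither could turn a positive sign. Median ratios gave the main values, and upper quartiles moved the median of all tested genes from -0.00018 to 0.0059. Hes1, a Notch effector that keeps progenitors undifferentiated, had 217 ± 9.98 normalized counts in wildtype and 254 ± 19.4 in the KO-labelled libraries (SD, n = 3, limma adjusted p = 0.508). Among 14 genes of progenitors and early neurons, 8 values were positive and 6 negative, and none passed. Btg2, an antiproliferative gene of neurogenic progenitors, had the largest value, 0.43 (limma adjusted p = 0.168), followed by Insm1, a zinc finger factor of the same cells, with 0.36 (limma adjusted p = 0.353). Dcx, the microtubule protein of migrating neurons, was named after its values were seen, with 23482 ± 377 and 21052 ± 655 normalized counts (SD, n = 3) and -0.16 on the log2 scale (limma adjusted p = 0.0678). The summed markers of cycling cells were 2418 to 2567 in wildtype and 2540 to 2783 in the KO-labelled libraries, and 0 of 6 passed. The 4 Wnt pathway TCF genes had a median of -0.02 (-0.12 to 0.05 with 1 library left out), with 0.17 for Tcf7l1 and -0.16 for Lef1 as the largest, and none passed.

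**Figure D5:**
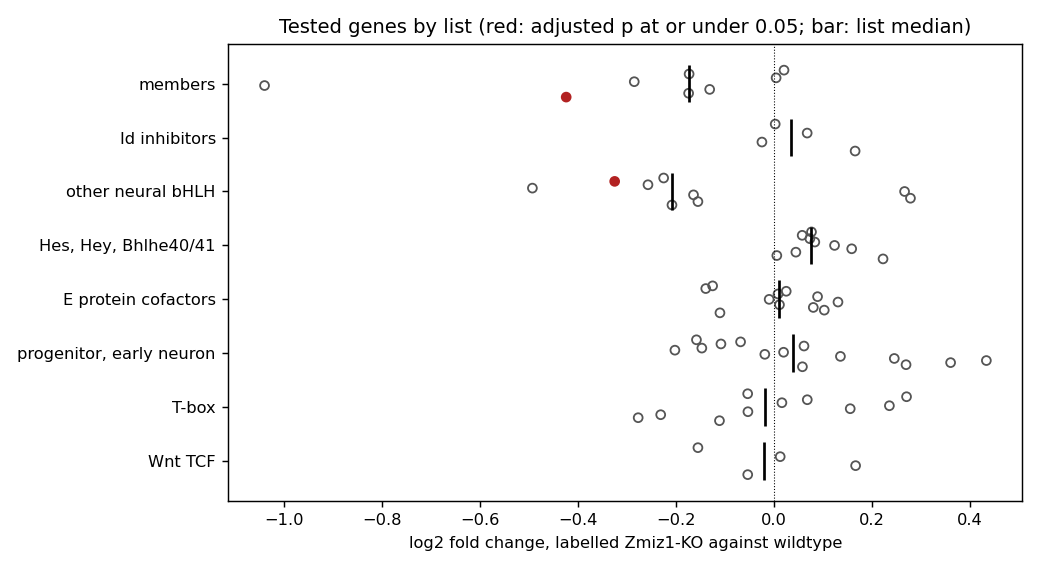
Log2 fold changes (x axis) of the tested genes in each list, with 1 point per gene and a bar at each list's median; red points have a limma adjusted p at or under 0.05. Neurod1 among the members and Olig1 among the other neural bHLH genes are the red points, and the Hes and Hey points lie to the right of 0.

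Summed markers of some cell types separated the groups beside these results. Summed markers of cortical interneurons were 18377 to 22812 normalized counts in wildtype and 23933 to 25702 in the KO-labelled libraries, with 10 of 10 log2 fold changes positive, 0 past the threshold and no marker at 0. Summed markers of striatal projection neurons were 11158 to 15665 and 16473 to 18208, with 8 of 8 positive, 0 past the threshold and no marker at 0. Gad1, Gad2, Slc32a1 and the Dlx genes of the interneuron list are also active in striatal neurons. Dlx6 had the largest value of the interneuron genes at 0.54 (limma adjusted p = 0.123) and Drd2 that of the striatal genes at 0.50 (limma adjusted p = 0.216). Markers of cortical excitatory neurons, which express the NeuroD genes, summed to 56692 to 61618 and 55630 to 57681, with overlapping groups. Of these 10 markers 2 fell past the threshold, Rorb, a layer 4 gene, by 0.43 and Emx1, the gene that drives Cre, by 0.53 on the log2 scale, with limma adjusted p values of 0.00856 and 0.0150, and no marker was at 0. Slc17a7 in the same list had a log2 fold change of 0.00, with 19640 ± 1127 and 19623 ± 533 normalized counts (SD, n = 3). The interneuron and striatal markers were positive throughout with any 1 library left out. They were also positive under both rescalings, which kept or slightly raised the values and so could not turn a positive sign. The part of the cell makeup of the dissections in the Neurod1 value was not tested.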

How the data were processed

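Using STAR and DESeq2 in Illumina BaseSpace, the authors aligned reads to mm10 and normalized gene counts, and deposited a table of signal values (normalized counts), with 1 column per library. Versions and annotation are not given in the sources used here. High values are not whole multiples of a step, so reads were not recovered and no count model was run. Because the table holds normalized values, limma (version 3.58.1, R 4.3.3) was applied to log2(value + 1) with trend and robust estimation, over 15800 genes with at least 10 in at least 3 libraries. P values are two-sided with Benjamini-Hochberg adjustment over these genes, and a threshold of 0.05. The procedure was tested on simulated data. Exact permutation tests used scipy.

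Coordinates, exon lengths and shared stretches came from GENCODE on GRCm38. RefSeq promoters were matched by symbol for 7 of 8 members (not Tcf4). The members and lists were chosen with earlier results of these data known. Named genes are the members, Zmiz1, and from each list those called and the 2 largest changes, and for each member the 2 genes of most similar pattern. Some genes that this rule names are not reported here. The precision rests on 3 libraries per group and on the depth. The alternatives were limma-voom, pseudocounts of 0.1 and 10, rescaling by median ratios or upper quartiles, no filter, a mean of at least 300, no robust estimation, an adjusted p of 0.1, leaving out each library, and blocking on replicate number. The 4 libraries with Xist under 1000 normalized counts were added after the data were seen.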

Additional observations from a re-analysis of the deposited data

How the results depend on the processing

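Neurod1 was the called member under each alternative that called any, and no other member was called under any of them. The number of members called was 1 with all libraries, 0 without robust estimation, 0 in the 4 libraries with Xist under 1000 normalized counts, and 0 to 1 with each library left out. Of all tested genes 65 were called, 17 without robust estimation, 168 with the replicate number as a block, 106 at an adjusted p of 0.1, 146 in the 4 libraries with low Xist, and 12 to 151 with each library left out (30 without wildtype replicate 1, and 17, 151 and 12 without KO-labelled replicates 1, 2 and 3). The cause was not tested. No pairing by replicate number was seen across all genes. Deviations of same-numbered libraries correlated at -0.0051, -0.11 and -0.0063, and no library correlated best with its own number. Correlations over all genes cannot exclude a factor shared by same-numbered libraries that acts on some of the genes. Under the block no member's call changed. Signs turned with a library left out for Eomes (-0.760 to 0.0503), Tcf3 (-0.0665 to 0.0536) and Tcf12 (-0.0354 to 0.0933). The scalings and pseudocounts changed no member's call or sign, but a pseudocount of 10 moved Neurog2 from -1.04 to -0.67. Median-ratio scaling of the already normalized values gave the main values, so it was no separate check. Neurog2, at about 4 to 16 reads per library, and Eomes, at about 25 to 86, rest on few reads and varied most in the KO-labelled group (coefficients of variation 79.5% and 63.0%), and both were left out by the filter on a mean of at least 300.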

Other observations

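Astrocyte markers held 1 called gene of 6, the water channel Aqp4, which fell from 5375 ± 233 to 4382 ± 138 normalized counts (SD, n = 3, limma adjusted p = 0.00499), and their sums overlapped, at 62465 to 67141 in wildtype and 56920 to 64713 in the KO-labelled group. Among 5 hippocampal pyramidal markers Lhx2, which cortical progenitors and upper-layer neurons also express, fell from 2269 ± 64.9 to 1901 ± 94.8 (SD, n = 3, limma adjusted p = 0.0411), and Fibcd1 had 754 ± 38.1 and 906 ± 39.3 (limma adjusted p = 0.137). The 5 hippocampal markers summed to 3182 to 3264 in wildtype and 2949 to 3084 in the other group. Lhx2 makes up most of that sum, and of the 5 log2 fold changes 3 were positive and 2 negative, with a median of 0.09. The 5 microglia markers held no called gene, with 2 positive and 3 negative log2 fold changes. Their sums did not overlap, at 2951 to 3177 in wildtype and 2896 to 2937 in the other group. The 5 endothelial markers held no called gene either, and their sums overlapped (6023 to 6135 against 5938 to 6289). Choroid plexus markers, led by Ttr, ranged from 341 to 8441 in wildtype and from 394 to 4922 in the other group, and 0 of 5 passed.

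Pattern likeness was measured as the root mean square difference of log2 values, after each gene's own mean was subtracted, over the 6 libraries and 10565 genes with a mean of at least 300. It is a description, since the closest of so many genes are close by selection. The genes closest to Neurod1 were Pla2g3 (0.0554) and Col8a1 (0.0712), beside a spread of Neurod1 itself of 0.221. Pla2g3 was also called, at -0.44 on the log2 scale (limma adjusted p = 0.0179), and Col8a1 was not (-0.35, limma adjusted p = 0.168). The genes closest to Tcf4 were Chl1 (0.0165) and Rbm12b2 (0.0175), beside 0.112 for Tcf4, and those closest to Neurod2 were Ppp2r3d (0.0278) and Sipa1 (0.0279), beside 0.116. Lhfp and Kcp were closest to Neurod6, 1700021F05Rik and Bag2 to Tcf3, and Zfp874b and Cdk20 to Tcf12, at 0.0185 to 0.0324. The nearest gene was Inhba for Neurog2 (0.525, beside 0.778) and Pcdha11 for Eomes (0.270, beside 0.551).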
